A study of Mus musculus with 15 samples.

Results

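The EGF receptor family and its ligands were followed through the count tables as 9 genes named by symbol: the receptors *Egfr*, *Erbb2* and *Erbb3*, and the ligands *Areg* (amphiregulin), *Ereg* (epiregulin), *Hbegf* (heparin-binding EGF-like growth factor), *Tgfa* (transforming growth factor alpha), *Nrg1* (neuregulin 1) and *Btc* (betacellulin). All 9 were found among the 20910 genes counted in cultured mouse RPE (mRPE) cells and among the 25038 genes counted in mouse RPE/choroid. The mRPE cells came from pooled adult C57/BL6J mice and were immortalized with HPV E6/E7. They were measured as 4 WT libraries, 3 libraries of the line mRPE Prom1KO 22 (KO22) and 2 of the line mRPE Prom1KO 26 (KO26). Both KO lines were made with Cas9 from a lentivirus and 1 guide RNA against *Prom1*, each line carries its own deletion, and each is a single line, so its libraries are repeats of that line. Whether the WT libraries also carry Cas9 or a scrambled guide is not given in the sources used here, and all mRPE cells shared the same medium with hydrocortisone and serum. The RPE/choroid libraries were 3 labelled WT and 3 labelled *Prom1*-KO, the latter from *Prom1* fl/fl mice crossed to RPE65-Cre and gavaged with tamoxifen. Cre is therefore driven by the promoter of an RPE gene, while the dissected tissue also holds choroid and other cells that keep *Prom1*. The labels give no age for these mice and do not say whether the WT mice carried Cre or received tamoxifen.

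EGF receptor family members are cell surface receptor tyrosine kinases that pair on ligand binding and signal through the RAS-ERK and PI3K-AKT cascades. EGFR binds EGF, amphiregulin, TGF-alpha, betacellulin, epiregulin and HB-EGF, ERBB2 has no known ligand and acts as the preferred partner of the others, and ERBB3 binds neuregulins but has a weak kinase. The ligands are made as membrane-anchored precursors that proteases of the ADAM family release, and in the RPE EGFR signaling is known for its part in proliferation and wound closure.

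The total count per library ranged from 8076188 to 27537863 in mRPE cells and from 48154444 to 61766179 in RPE/choroid. The mitochondrial ribosomal RNA genes took 11.1% to 19.0% of the counts in mRPE libraries and 55.3% to 80.4% in RPE/choroid libraries. The mRPE libraries fall into 2 sequencing batches, 8995 and 9262, with 1 library of each line in batch 8995. Of 12 RPE markers, 9, *Rpe65* among them, were not analysed here in mRPE cells, so the RPE label of the cultures was checked on *Best1*, *Mitf* and *Pmel* alone. These summed to 8.19 to 12.8 CPM (library counts scaled to a common total) in WT, 15.5 to 38.7 in KO22 and 5.38 to 9.14 in KO26. The genes did not move together. By edgeR the log2 difference of KO22 from WT was 1.41 ± 0.33 (SE) for *Mitf* (adjusted p = 0.0055), 0.795 ± 0.44 for *Best1* (adjusted p = 0.159) and -0.40 ± 0.26 for *Pmel* (adjusted p = 0.216). For KO26 it was -1.54 ± 0.44 for *Mitf* (adjusted p = 0.0864), -0.39 ± 0.65 for *Best1* and 0.21 ± 0.29 for *Pmel*. *Prom1* itself was not analysed here in the mRPE libraries. In RPE/choroid it stood at 48.7, 49.6 and 53.3 CPM in WT and at 49.9, 48.1 and 35.5 CPM in the libraries labelled *Prom1*-KO. The log2 difference was -0.18 ± 0.16 (SE, adjusted p = 0.824), so the target was not shown to be lower there and the group is called by its label throughout.

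Amphiregulin, epiregulin and betacellulin are neighbours: their genes lie on chromosome 5 at 91287451 to 91296291, 91222157 to 91241505 and 91505120 to 91550883 (GRCm39), within 328.7 kb from the *Ereg* start to the *Btc* start, with *Areg* and *Ereg* on the plus strand and *Btc* on the minus strand. The promoters of *Areg* and *Btc*, the ligand genes that rose most together with *Ereg*, and of *Egfr*, the receptor gene that fell most, are shown because, of the members with a promoter window, these had the largest fold changes in KO22. RefSeq promoter windows (GRCm38.p6, 300 bases, from 250 before to 50 after the gene start, read on the gene's own strand) matched 5 of the 9 members, and those of *Erbb3*, *Ereg*, *Hbegf* and *Nrg1* are not shown. Capitals mark the matches, on either strand, to 5 motifs that were searched, whose letters are spelled out after the windows and none of which overlap here.
*Areg*, chr5:91139349-91139648, plus strand: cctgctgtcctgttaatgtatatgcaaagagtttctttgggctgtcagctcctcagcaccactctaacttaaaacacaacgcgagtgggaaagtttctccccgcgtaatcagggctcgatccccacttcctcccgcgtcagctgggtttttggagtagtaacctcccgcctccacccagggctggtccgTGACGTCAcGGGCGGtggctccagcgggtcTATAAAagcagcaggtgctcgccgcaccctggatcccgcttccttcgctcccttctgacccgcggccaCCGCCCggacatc
*Btc*, chr5:91402945-91403244, minus strand: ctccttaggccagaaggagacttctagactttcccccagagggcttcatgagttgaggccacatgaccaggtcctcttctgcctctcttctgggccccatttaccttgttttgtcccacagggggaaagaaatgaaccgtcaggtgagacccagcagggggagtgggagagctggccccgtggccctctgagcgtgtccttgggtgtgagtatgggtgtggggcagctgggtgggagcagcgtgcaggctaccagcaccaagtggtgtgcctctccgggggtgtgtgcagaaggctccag
*Egfr*, chr11:16751953-16752252, plus strand: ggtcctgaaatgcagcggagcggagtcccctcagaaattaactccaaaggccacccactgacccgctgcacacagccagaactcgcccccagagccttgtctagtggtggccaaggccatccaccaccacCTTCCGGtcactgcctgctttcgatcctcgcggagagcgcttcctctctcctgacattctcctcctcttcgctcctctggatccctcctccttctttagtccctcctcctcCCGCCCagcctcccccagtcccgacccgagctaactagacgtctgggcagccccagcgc
The *Areg* window held a cAMP response element, spelled TGACGTCA, beginning at base -61 counted from the gene start. It held a GC box, spelled GGGCGG, beginning at base -52 and another on the minus strand at base 38. It also held a TATA box, spelled TATAAA, beginning at base -31. Over 32851 promoters of the same length, 1.79% held the cAMP response element, 35.7% the GC box and 13.6% the TATA box. The *Egfr* window held a match on the minus strand to an ETS site, spelled CCGGAAG, at base -120, as did 8.86% of all promoters, and a GC box at base -9. The *Btc* window held none of the 5 motifs, and no match to an AP-1 site, spelled TGANTCA and present in 7.81% of promoters, was found in the *Areg*, *Btc*, *Egfr*, *Erbb2* or *Tgfa* window. These matches describe letters only and were not tied to any factor.

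In KO22 cells, 4 ligand genes were higher and *Egfr* was lower than in WT. Of the 8 members tested, *Areg*, *Ereg*, *Btc* and *Hbegf* rose past both limits (adjusted p below 0.05 and an absolute log2 fold change above 1.2), *Egfr* fell past both, and *Erbb2*, *Tgfa* and *Nrg1* did not pass. Across all 20455 genes tested, 11.4% rose and 13.8% fell past both limits, so a large part of the transcriptome differed between these cells, and the median log2 fold change was 0.95 over the members and -0.03 over all genes. *Erbb3* had 1 to 18 counts per mRPE library and was not tested. The edgeR quasi-likelihood test with sequencing batch in the model was used, with Benjamini-Hochberg adjustment over all genes.

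**Figure D1:**
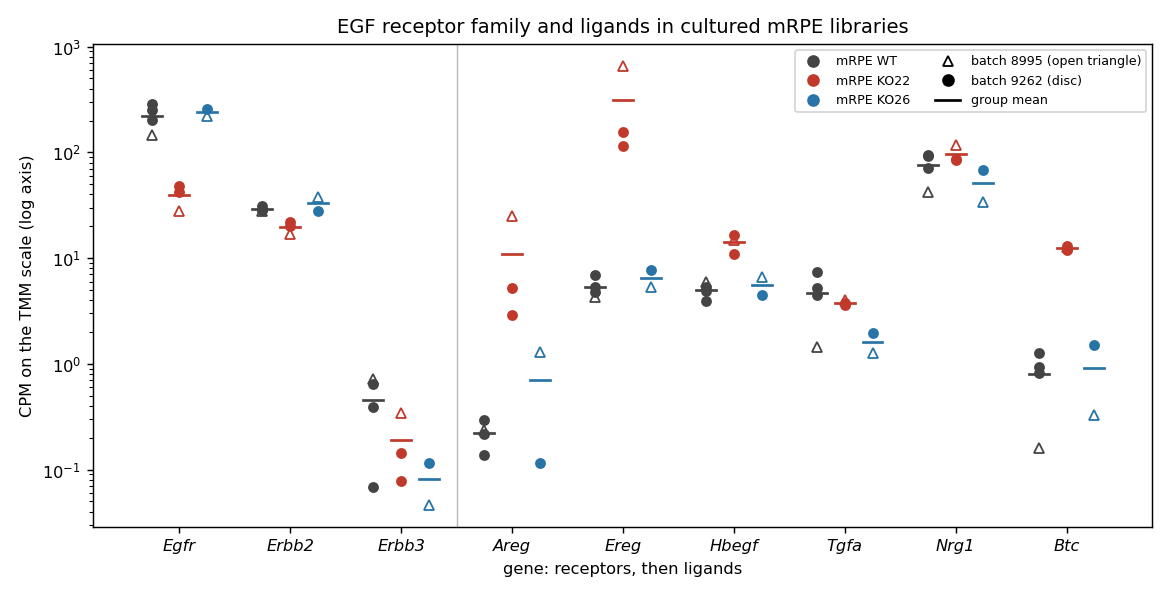
CPM on the TMM scale (log axis) of the 9 genes in each mRPE library, for WT, KO22 and KO26; open triangles are batch 8995, discs are batch 9262 and bars are group means. *Ereg* in KO22 spans 115 to 657 CPM against 4.33 to 6.87 in WT, and *Egfr* in KO22 spans 28.2 to 47.8 CPM against 145 to 288 in WT.

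*Egfr* (chromosome 11, 16702198 to 16868158, plus strand) encodes the receptor that all the ligands studied here other than neuregulin 1 bind. It stood at 145, 201, 288 and 254 CPM in WT, at 28.2, 47.8 and 41.8 CPM in KO22 and at 221 and 259 CPM in KO26. Every KO22 library lay below every WT and KO26 library, and the lowest WT value was that of batch 8995. The fit gave 5.41-fold lower *Egfr* in KO22 than in WT (log2 fold change -2.44 ± 0.15 SE, 95% confidence interval -2.77 to -2.10, adjusted p = 2.7e-06). Within batch 8995 the KO22 to WT ratio was 0.195 and within batch 9262 it was 0.181. The lncRNA genes *Egfros* and *Eldr* overlap *Egfr* on the opposite strand, and which strand setting the counting used is not given in the sources used here.

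*Erbb2* (chromosome 11, 98303203 to 98328542, plus strand), the ligandless partner receptor, was read at 27.6, 28.6, 28.4 and 31.4 CPM in WT, 17.0, 22.0 and 20.1 CPM in KO22 and 37.8 and 28.1 CPM in KO26. All KO22 values lay under all WT values, but the difference was 1.46-fold (log2 fold change -0.55 ± 0.12 SE, adjusted p = 0.00405), under the fold limit. An adjusted p below 0.05 at any fold was reached by 6 of the 8 members and by 53% of all genes tested. *Erbb3* (chromosome 10, 128403392 to 128425811, minus strand) totalled 32 counts over the 4 WT libraries, 8 over the 3 KO22 libraries and 2 over the 2 KO26 libraries, a depth at which no difference was tested.

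*Ereg*, whose product binds EGFR and ERBB4, stood at 4.33, 4.80, 6.87 and 5.38 CPM in WT and at 657, 115 and 156 CPM in KO22. The groups did not overlap, and the 8995 library of KO22 was the highest of its line by a wide margin. The fitted difference was 41.8-fold (log2 fold change 5.39 ± 0.47 SE, interval 4.32 to 6.45, adjusted p = 1.88e-05). The ratio was 152 within batch 8995 and 23.9 within batch 9262, and leaving out the 8995 library of WT or of KO22 brought the log2 fold change to 4.59 or 4.61. A test of the batch difference gave a KO22 effect larger by 2.65 ± 0.28 on the log2 scale in batch 8995 (edgeR, 7 libraries, adjusted p = 7.4e-07), and 26.6% of all genes passed that test at an adjusted p below 0.05. The antisense lncRNA gene *Gm19610* overlaps *Ereg* and rose too (log2 fold change 3.16 ± 0.27 SE), from a mean of 1.26 CPM in WT to 12.2 CPM in KO22, against 309 CPM for *Ereg*. Without a stated strand setting, reads of this pair cannot be told apart.

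*Areg* encodes amphiregulin, an EGFR ligand. It had 6, 2, 3 and 3 counts in the WT libraries (0.238, 0.137, 0.295 and 0.215 CPM) and 287, 60 and 67 counts in KO22 (24.8, 2.89 and 5.20 CPM). Every KO22 value lay above all WT values, and that of batch 8995 was the highest. Summed counts gave a ratio of 41.8 with an exact interval of 24.6 to 77.1 that covers counting error only, and the fit gave a log2 fold change of 5.39 ± 0.51 (SE, adjusted p = 2.76e-05). Among the WT libraries only that of batch 8995 reached 5 counts, so *Areg* entered the test only through its high KO22 libraries. Its call is therefore not separate support for the rise. Leaving out the 8995 library of WT or of KO22 brought it to 4.17 or 4.21. The KO22 effect was larger in batch 8995 by 2.47 ± 0.91 on the log2 scale (adjusted p = 0.0481).

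*Btc*, which encodes betacellulin, a ligand of EGFR and ERBB4, stood at 0.159, 0.823, 1.28 and 0.933 CPM in WT and at 12.7, 13.0 and 11.9 CPM in KO22. The KO22 libraries lay close together and far above WT, where the 8995 library was lowest. The difference was 18.5-fold (log2 fold change 4.21 ± 0.39 SE, interval 3.33 to 5.09, adjusted p = 2.57e-05). The KO22 to WT ratio was 80.0 in batch 8995, where WT had 4 counts, and 12.4 in batch 9262, and the batches differed by 2.60 ± 0.63 on the log2 scale (adjusted p = 0.00412).

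*Hbegf* (chromosome 18, 36637980 to 36649677, minus strand) encodes HB-EGF, which binds EGFR and ERBB4. It was read at 5.92, 3.91, 4.91 and 5.31 CPM in WT and at 14.8, 10.9 and 16.4 CPM in KO22, again without overlap. The difference was 2.76-fold (log2 fold change 1.47 ± 0.20 SE, interval 1.02 to 1.91, adjusted p = 0.000244), with ratios of 2.498 and 2.91 within batches 8995 and 9262. For *Hbegf* and *Egfr*, unlike *Areg*, *Ereg* and *Btc*, no batch difference was shown. It was -0.20 ± 0.34 for *Hbegf* (adjusted p = 0.703) and 0.10 ± 0.23 for *Egfr* (adjusted p = 0.784). In all, the KO22 and WT libraries did not overlap for 4 members that were higher and 2 that were lower, and likewise for 24.8% and 25.3% of all genes tested.

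*Nrg1* (chromosome 8, 32303906 to 33374825, minus strand) encodes neuregulin 1, a ligand of ERBB3 and ERBB4. It stood at 41.9, 71.7, 95.3 and 91.6 CPM in WT and at 117, 84.6 and 86.4 CPM in KO22. The ratio was 2.79 within batch 8995 and 0.992 within batch 9262, a batch difference of 1.49 ± 0.20 on the log2 scale (adjusted p = 1.23e-05), so the pooled log2 fold change of 0.42 ± 0.26 (adjusted p = 0.198) did not hold within batches. *Tgfa* (chromosome 6, 86172041 to 86252728, plus strand), the gene of the EGFR ligand TGF-alpha, showed the same split. It stood at 1.43, 4.52, 7.46 and 5.17 CPM in WT and 3.98, 3.62 and 3.80 CPM in KO22, with ratios of 2.78 and 0.649 within batches 8995 and 9262 and a batch difference of 2.08 ± 0.48 (adjusted p = 0.00277).

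**Figure D2:**
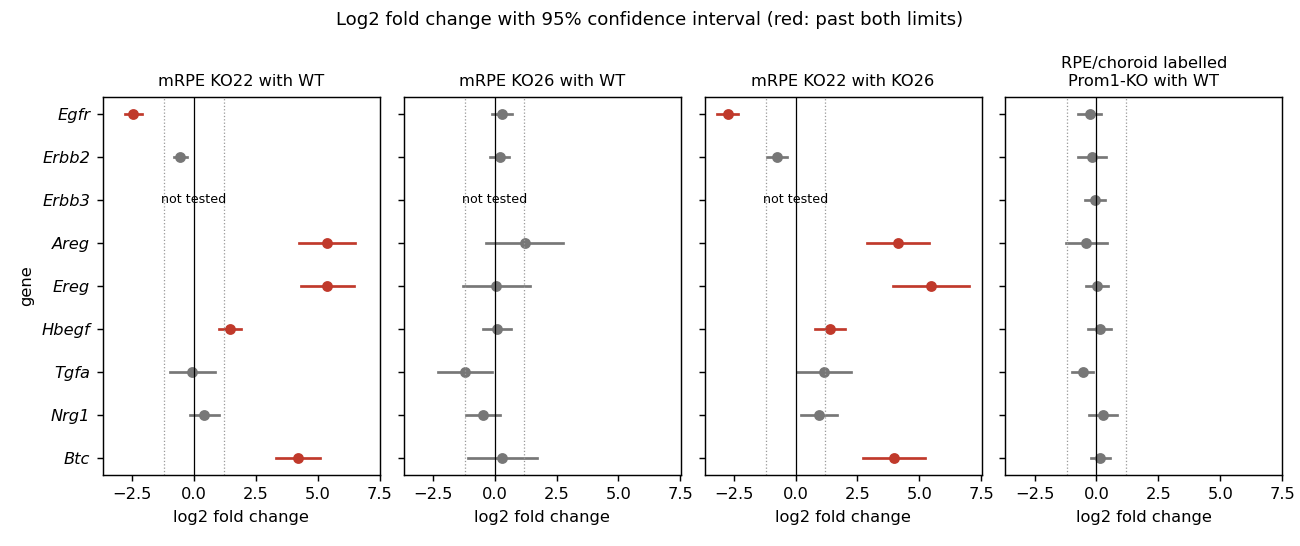
Log2 fold change (x axis) with 95% confidence interval for each member (y axis) in the 4 comparisons; red marks members past both limits and dotted lines stand at a log2 fold change of 1.2 in either direction. In KO22 the intervals of *Areg*, *Ereg*, *Btc* and *Hbegf* lie above 0 and that of *Egfr* below 0, while in KO26 and in RPE/choroid no member is red.

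These differences were not shown in clone KO26. None of the 8 members tested passed both limits against WT, where 1.21% of genes rose and 0.719% fell past both limits. By edgeR, 1 of the 8 members (*Tgfa*) had an unadjusted p below 0.05, as did 20.1% of all genes, and DESeq2 called 0 members as well. The study set the libraries of this line aside as outliers. *Ereg* was read at 5.29 and 7.75 CPM in KO26 (log2 fold change 0.07 ± 0.61 SE, interval -1.27 to 1.41), and *Btc* at 0.325 and 1.50 CPM (0.31 ± 0.63). *Areg* had 28 counts in the 8995 library of KO26 and 1 in the 9262 library, which gave 1.30 and 0.116 CPM, a split wider than that of the WT libraries. Its log2 difference from WT was 1.21 ± 0.70 (SE, adjusted p = 0.36). Summed counts of *Areg* gave a KO26 to WT ratio of 4.38 with an exact interval of 2.24 to 8.97 that covers counting error only. That ratio rested on the 8995 library. *Hbegf* stood at 6.64 and 4.51 CPM and *Egfr* as given above, with log2 fold changes of 0.08 ± 0.25 and 0.30 ± 0.18. *Tgfa* was read at 1.25 and 1.97 CPM, lower than WT by a log2 difference of -1.201 ± 0.49 (adjusted p = 0.208), and *Nrg1* at 34.1 and 68.5 CPM (-0.46 ± 0.31, adjusted p = 0.439). With 2 libraries these intervals are wide, and only the ends of each can be set against the KO22 values.

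The direct comparison of the 2 KO lines gave *Areg*, *Ereg*, *Btc* and *Hbegf* higher and *Egfr* lower in KO22 than in KO26, each past both limits; over all 20737 genes tested in that fit 7.56% rose and 10.7% fell. *Egfr* was 6.72-fold lower (log2 fold change -2.75 ± 0.19 SE, adjusted p = 4.69e-06) and *Ereg* 44.0-fold higher (5.46 ± 0.70, adjusted p = 0.000236). *Areg* differed by 4.14 ± 0.57, *Btc* by 3.96 ± 0.57 and *Hbegf* by 1.39 ± 0.27 on the log2 scale, with adjusted p values of 0.000358, 0.000481 and 0.00258. *Erbb2* (-0.75 ± 0.19, adjusted p = 0.0102) and *Nrg1* (0.94 ± 0.33, adjusted p = 0.0456) differed by less than the fold limit. An adjusted p below 0.05 at any fold was reached by 7 of the 8 members and by 34.4% of all genes. These KO22 libraries are the same ones compared with WT, so the agreement of both comparisons is not independent. *Areg* entered this fit, too, only through its KO22 libraries.

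Per kilobase of exon (length of the merged exons of all annotated transcripts, GENCODE on GRCm39), levels could be set side by side between genes. Among the receptors of WT mRPE cells, *Egfr* at 19.2 ± 5.4 (SD, n = 4) CPM per kb stood above *Erbb2* at 5.35 ± 0.31, and *Erbb3* was at 0.072 ± 0.046. In KO22 *Egfr* and *Erbb2* were level, at 3.40 ± 0.87 and 3.63 ± 0.46 CPM per kb (SD, n = 3), with overlapping ranges. The summed receptor level per kb was 24.6 ± 5.6 in WT, 7.06 ± 1.3 in KO22 and 26.9 ± 1.1 (n = 2) in KO26.

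Among the ligands of WT mRPE cells, *Nrg1* led at 4.50 ± 1.5 CPM per kb, followed by *Ereg* at 1.201 ± 0.25, *Hbegf* at 0.981 ± 0.17, *Tgfa* at 0.680 ± 0.36, *Areg* at 0.181 ± 0.053 and *Btc* at 0.175 ± 0.10 (SD, n = 4). *Nrg1* lay above all the others in every library. The ranges of *Ereg* and *Hbegf*, of *Hbegf* and *Tgfa*, of *Tgfa* and *Areg* and of *Areg* and *Btc* overlapped. Compared within each library, *Tgfa* lay above *Areg* in every WT library, though narrowly in that of batch 8995 (0.209 and 0.195 CPM per kb). The order of the other neighbours changed between libraries. In KO22 the order changed: *Ereg* led at 25.9 to 148 CPM per kb, ahead of *Nrg1* at 5.07 to 7.01 in every library, while *Areg* ranged from 2.37 to 20.3 and overlapped *Nrg1*. *Ereg* made up 66.6% to 81.4% of the summed ligand level per kb in KO22, 13.6% to 19.1% in WT and 20.3% to 23.4% in KO26. *Nrg1* made up 49.4% to 61.8% in WT and 3.87% to 13.0% in KO22. The summed ligand level was 7.72 ± 2.1 CPM per kb in WT, 6.64 ± 1.1 in KO26 and 38.8 to 181 in KO22.

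The ligand genes on chromosome 5 lie beside the CXC chemokine genes. Within 500 kb of the *Ereg* start, a window set after the values were seen, 17 genes were tested in KO22 against WT. Of these, 9 were higher and 5 lower past both limits, beside 11.4% and 13.8% of all genes. The 3 ligand genes around which the window was set are among the 9. Besides the 3 ligand genes, 6 of the 14 others rose, among them 3 chemokine genes. The rest were the lncRNA genes *Gm19610* and *Gm19619* and the rRNA entry *Gm55977*, which averaged 0.521 CPM in WT. Reads of *Gm19610* cannot be told apart from those of *Ereg*. *Gm19619* had at most 1 count per WT library, so it entered the test through KO22 alone. The count of genes that rose therefore rests partly on such entries. *Cxcl1* had a log2 fold change of 2.56 ± 0.43 (SE), with 34.5 CPM in WT and 229 in KO22 on average. *Cxcl2* (3.08 ± 0.56) and *Cxcl3* (4.33 ± 0.62) were near the floor in WT. Their WT means were 0.659 and 0.149 CPM, with at most 12 and 5 counts per library, and their KO22 means 5.01 and 3.16 CPM. *Cxcl15* (-3.12 ± 0.62), the chemokine gene *Ppbp* (-1.202 ± 0.27), *Rassf6* (-2.87 ± 0.31) and *Parm1* (-1.73 ± 0.54) in the same window were lower. *Cxcl15* and *Parm1* averaged 0.807 and 0.582 CPM in WT. *Cxcl5* (-0.30 ± 0.66) and *Mthfd2l* (-0.26 ± 0.19) did not pass. *Mthfd2l* is the nearest coding gene of the window on the side of *Ereg* away from *Areg*. The median over the genes of chromosome 5 was -0.11, and taking it off each member's value left *Ereg* at 5.49 and *Btc* at 4.32. *Prom1*, the edited gene, lies 47.0 Mb away on the same chromosome.

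**Figure D3:**
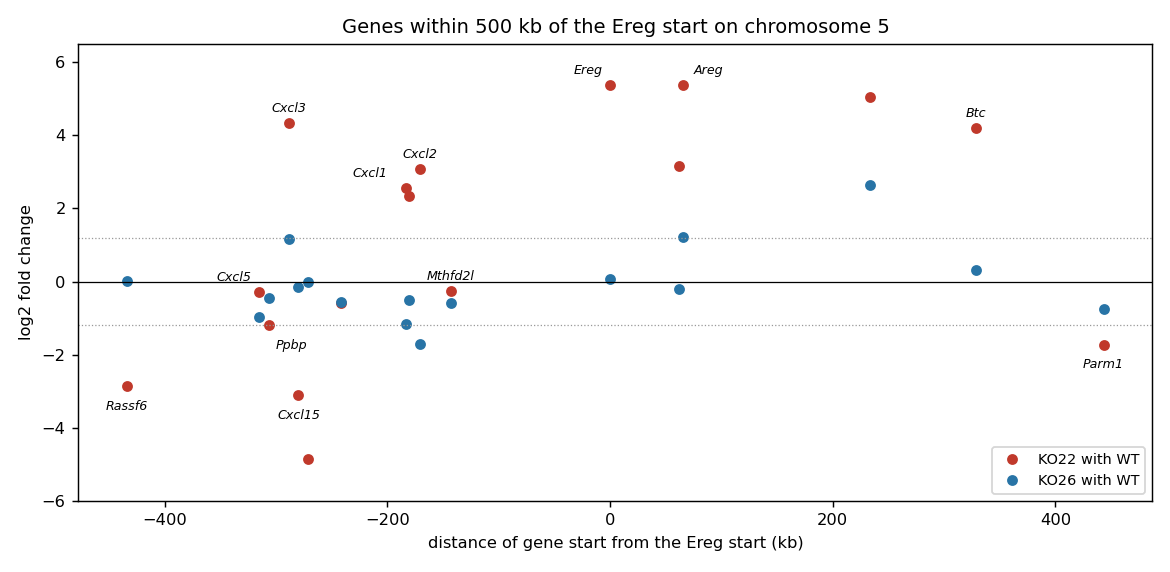
Log2 fold change against WT (y axis) of the genes whose starts lie within 500 kb of the *Ereg* start (x axis, distance in kb), in KO22 (red) and KO26 (blue); dotted lines stand at 1.2 in either direction and genes with *Gm* names are not labelled. *Ereg* and *Areg* stand at 5.39 and *Btc* at 4.21 in KO22, with *Cxcl5* at -0.30 and *Mthfd2l* at -0.26.

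The genes nearest to each member in pattern were sought among all tested genes as those with the smallest root mean square difference in log2 CPM relative to the WT mean of the same batch over the 9 mRPE libraries, with 0.5 CPM added. For *Egfr* these were *Il17rd* (0.197), *Hdac11* (0.199) and *Ak3* (0.203). For *Ereg* they were *Acp3* (0.460), *Tnfrsf9* (0.507) and *Akr1c18* (0.538), for *Areg* *Tnfaip6* (0.402), *Gm37498* (0.450) and *Lif* (0.466), and for *Btc* *Adgrv1* (0.246), *Rab15* (0.306) and *Pgbd5* (0.309). For *Hbegf* they were *6530413G14Rik* (0.113), *Ncs1* (0.137) and *Pdss1* (0.153). None of these 15 genes lies on chromosome 5, and no member was nearest to another member. The added 0.5 CPM draws genes of low level towards 0, so distances of *Areg* and *Btc* rest partly on it.

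Of the other family genes, *Egf* (log2 fold change -0.18 ± 0.26 SE, adjusted p = 0.58), which encodes the founding ligand, and *Nrg4* (0.44 ± 0.16, adjusted p = 0.0468), a ligand of ERBB4, were tested in KO22 and did not pass both limits. *Nrg2* had 0 to 10 counts per mRPE library and was tested only in the fit over 9 libraries, where KO22 was lower than KO26 (-2.73 ± 0.91, adjusted p = 0.0388) on 5 counts in KO22 and 13 in KO26; DESeq2 gave a Wald adjusted p of 0.05325, and without KO22 replicate 2 or 3 edgeR gave 0.0673 or 0.0951, and without the batch term 0.183. The receptor gene *Erbb4* and the ligand genes *Epgn* and *Nrg3* were not analysed here in mRPE cells. All 6 were tested in RPE/choroid and none passed.

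Of 17 tested genes that release the ligands or handle the receptors, 1 rose past both limits in KO22, 1 fell and 15 did neither. Over all genes 11.4% rose and 13.8% fell. By adjusted p alone 6 of the 17 were higher and 3 lower, near the 53% of all genes that passed in either direction. *Cd9*, a tetraspanin that associates with the HB-EGF precursor, rose (log2 fold change 2.00 ± 0.12 SE, adjusted p = 2.75e-06), and *Adam12*, an ADAM protease, fell (-1.45 ± 0.23, adjusted p = 0.000605; -1.09 within batch 9262, -1.11 or -1.08 without the 8995 library of WT or of KO22, and -1.13 with the chromosome median taken off, all under the fold limit). The main ligand sheddases stayed under the fold limit, *Adam10* with a log2 fold change of 0.83 ± 0.09 (adjusted p = 8.3e-05) and *Adam17* with -0.54 ± 0.13 (adjusted p = 0.00588); both were named after their values were seen. The list median was 0.24, beside -0.03 over all genes.

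Of the 21 genes that brake the receptors or the ERK pathway, 3 rose and 2 fell past both limits in KO22, numbers near the 11.4% and 13.8% of all genes that did so. By adjusted p alone 12 of the 21 were higher and 4 lower, beside 53% of all genes in either direction. *Dusp4*, a phosphatase of ERK, stood at 3.63 to 4.45 CPM in WT, 29.7 to 45.9 in KO22 and 7.29 to 10.8 in KO26. It rose in KO22 (log2 fold change 3.08 ± 0.15 SE, adjusted p = 8.48e-07), and in KO26 the difference of 1.02 ± 0.19 (adjusted p = 0.0196) was under the fold limit. *Spry4*, a Sprouty inhibitor of RAS-ERK signaling, rose in KO22 (2.91 ± 0.19, adjusted p = 3.27e-06) and in KO26 (1.92 ± 0.40, adjusted p = 0.0293), but the KO26 value rested on the 8995 library at 23.3 CPM; the 9262 library was at 3.01 CPM and the WT libraries at 1.51 to 3.42. Without that 8995 library the log2 fold change was 0.78 with an adjusted p of 0.387, and without any 1 of the WT libraries the adjusted p was 0.0754 to 0.135. *Dusp5* rose (1.27 ± 0.23), while *Lrig3* (-2.18 ± 0.12), a membrane protein of the LRIG family, and *Spry2* (-1.53 ± 0.24) fell; *Spry2* was at -1.18 or -1.16 without the 8995 library of WT or of KO22, under the fold limit, and *Dusp5* at 1.07 without KO22 replicate 3. The list median was 0.48.

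Downstream of the receptors, 1 of 18 genes from the adaptors to ERK passed, *Nras* (1.27 ± 0.11, adjusted p = 1.58e-05), and 1 of 14 genes of the PI3K, AKT and STAT list, *Pik3cb* (1.38 ± 0.14, adjusted p = 4.63e-05), which encodes a catalytic PI3K subunit. Both rose, 1 gene of each list beside 11.4% of all genes, and neither kept its place above the fold limit: *Nras* was at 1.18 without KO22 replicate 3 and at 1.16 with the chromosome median taken off, and *Pik3cb* at 1.199 without the 8995 WT library and at 1.11 with the chromosome median taken off. Of the 17 tested genes induced by ERK signaling, 6 rose and 0 fell past both limits, beside 11.4% and 13.8% of all genes, and the list median was 1.13. The 4 with the smallest adjusted p were *Plaur*, the urokinase receptor gene (2.89 ± 0.20), *Etv4*, an ETS factor (2.92 ± 0.30), *Fosl1*, an AP-1 subunit (2.81 ± 0.29) and *Ier2*, an immediate early gene (1.99 ± 0.23). *Fosl1* stood at 98.0 to 190 CPM in KO22 against 12 to 23.2 in WT. *Fos* itself had a log2 fold change of -1.04 ± 0.32 (adjusted p = 0.0206) and *Egr1* of 0.40 ± 0.23 (adjusted p = 0.175); these 2 were chosen after their values were seen. In KO26 no gene of this list passed both limits, and its median was 0.39. By adjusted p alone, 12 of the 17 ERK-induced genes were higher in KO22 and 1 lower, beside 53% of all genes in either direction. The same counts were 6 and 5 of the 18 genes from the adaptors to ERK. For the 14 genes of the PI3K, AKT and STAT list they were 5 and 3.

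**Figure D4:**
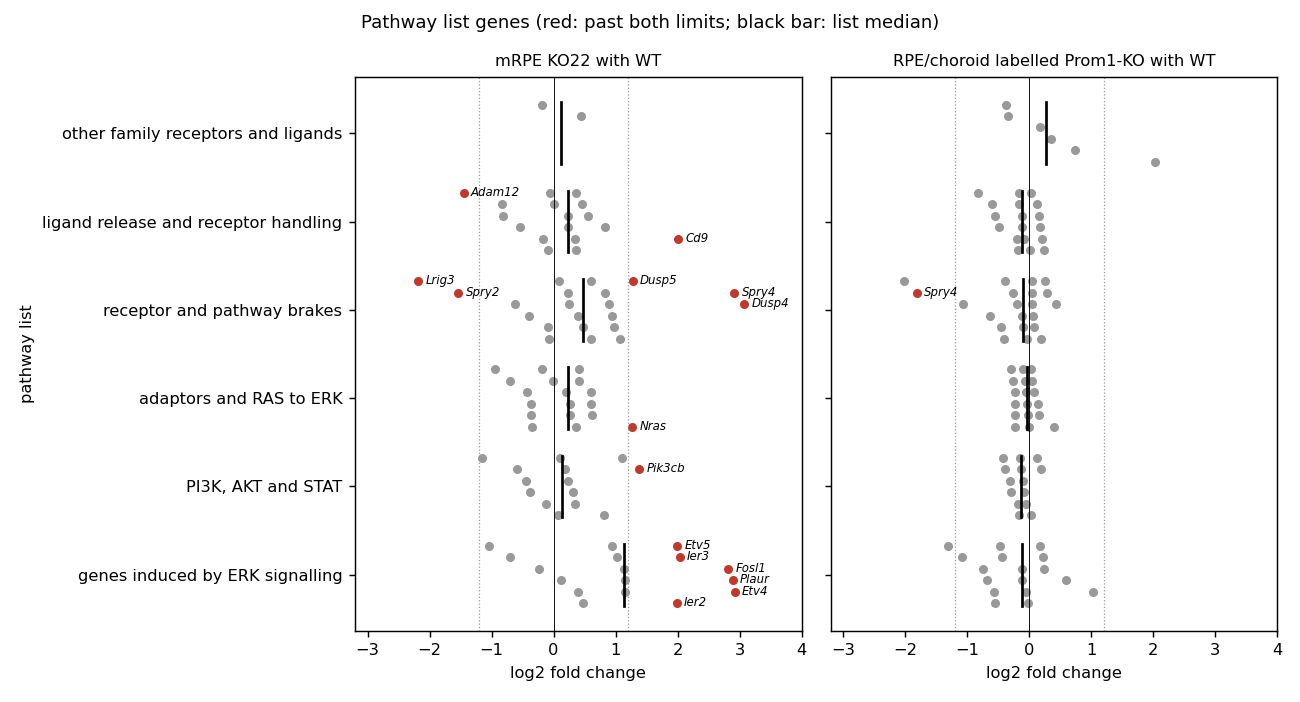
Log2 fold change (x axis) of every tested gene of the 6 pathway lists (y axis) in KO22 against WT and in RPE/choroid labelled *Prom1*-KO against WT; red marks genes past both limits, black bars are list medians and dotted lines stand at 1.2 in either direction. The median of the ERK-induced list is 1.13 in KO22 and -0.12 in RPE/choroid.

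Markers of other cell types moved in the KO lines, and within each list not all one way. Of the surface epithelium markers, 3 of 6 were analysed here in mRPE cells, and they summed to 5.21 to 7.71 CPM in WT, 88.5 to 171 in KO22 and 10.6 to 16.3 in KO26. In KO22 *Aldh3a1* rose (log2 fold change 5.94 ± 0.30 SE), while *Trp63* was lower at -1.14 ± 0.30 (adjusted p = 0.00925), under the fold limit, and *Krt14*, not tested, was lower in KO22 without overlap, so the higher sum was that of *Aldh3a1* and not of the list. In KO26 *Krt14* rose past both limits by edgeR (4.11 ± 0.51, adjusted p = 0.00491), and *Trp63* (0.34 ± 0.36) and *Aldh3a1* (-0.09 ± 0.42) did not pass. Endothelial markers, 6 of 8, summed to 154 to 238 CPM in WT, 4.89 to 6.75 in KO22 and 57.7 to 75.9 in KO26. In KO22 *Kdr* (-6.22 ± 0.47) and *Tek* (-2.38 ± 0.43) fell, *Plvap* rose (1.82 ± 0.55), and *Vwf* (1.93 ± 0.98), *Egfl7* (0.47 ± 0.42) and *Pecam1* (-0.29 ± 0.57) did not pass. The lower endothelial sum in KO22 was therefore not that of the whole list. In KO26 *Kdr* (-1.49 ± 0.43, adjusted p = 0.0869) and *Tek* (-1.37 ± 0.47, adjusted p = 0.137) lay below WT without overlap but did not pass. Smooth muscle and pericyte markers, 5 of 5, summed to 624 to 1748 CPM in WT, 158 to 264 in KO22 and 922 to 1885 in KO26. In KO22 *Acta2* (-2.28 ± 0.17), *Tagln* (-1.89 ± 0.13) and *Rgs5* (-2.39 ± 0.48) fell, *Cnn1* rose (1.94 ± 0.40) and *Myh11* did not pass (-0.12 ± 0.48). *Rgs5* went the other way in KO26, where it rose past both limits by edgeR (2.55 ± 0.40, adjusted p = 0.0116). *Acta2* (0.36 ± 0.17), *Tagln* (0.38 ± 0.14), *Cnn1* (-1.30 ± 0.63) and *Myh11* (0.48 ± 0.53) did not pass in KO26. Fibroblast and stroma markers, 5 of 6, summed far above the RPE markers, to 7674 to 10540 CPM in WT, 4035 to 6767 in KO22 and 11970 to 13080 in KO26. In KO22 *Col1a1* (-1.50 ± 0.15) and *Pdgfra* (-1.51 ± 0.12) fell. *Col3a1* (-0.47 ± 0.16), *Dcn* (0.61 ± 0.30) and *Dpt* (-0.40 ± 0.45) did not pass in KO22, and in KO26 none of these genes passed both limits. None of the markers analysed was at 0 in all libraries of a group. Their part in the differences of the EGF family genes was not tested.

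In RPE/choroid all 9 members were read, *Erbb3* included, and none passed both limits between libraries labelled *Prom1*-KO and WT. Over all 24926 genes 0% rose and 0.189% fell past both limits, with 8.3% of genes at an unadjusted p below 0.05 by edgeR. *Tgfa* was the 1 member of 9 with an unadjusted p below 0.05. It stood at 10.98, 9.72 and 9.44 CPM in WT and 6.43, 8.52 and 5.57 CPM in the libraries labelled *Prom1*-KO, so the groups did not overlap, but the log2 fold change of -0.55 ± 0.18 (SE, interval -0.98 to -0.12) had an adjusted p of 0.452. No overlap was seen for 6.71% of genes upward and 7.89% downward, and for 1 of the 9 members. In bulk tissue, fewer cells of a type and less RNA per cell cannot be told apart.

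*Egfr* was read in RPE/choroid at 107, 140 and 111 CPM in WT and 77.6, 95.7 and 122 CPM in the other group (log2 fold change -0.28 ± 0.20 SE, adjusted p = 0.787). *Ereg* stood at 7.41, 7.76 and 5.16 CPM against 6.29, 7.30 and 6.97 CPM (0.02 ± 0.18, interval -0.42 to 0.45), and *Btc* at 3.11, 2.52 and 3.05 CPM against 3.26, 3.02 and 3.45 CPM (0.16 ± 0.17, interval -0.23 to 0.55). *Areg* (-0.41 ± 0.35, interval -1.23 to 0.41) and *Hbegf* (0.14 ± 0.20, interval -0.33 to 0.60) overlapped between groups as well. The upper ends of these intervals lie below the KO22 log2 fold changes of *Areg*, *Ereg*, *Btc* and *Hbegf*. The tissue and the cultures were fitted separately and the difference was not tested. The tissue also holds cells that keep *Prom1*, so these intervals are those of the whole tissue and do not bound a change in its RPE cells.

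**Figure D5:**
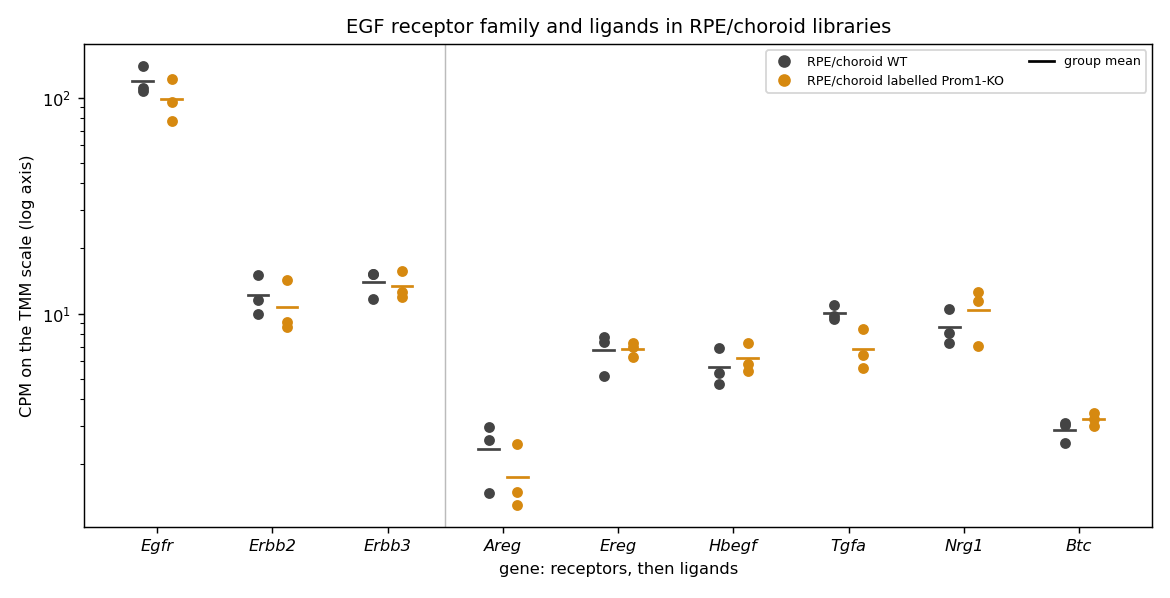
CPM on the TMM scale (log axis) of the 9 genes in each RPE/choroid library, labelled WT or *Prom1*-KO (n = 3 each); bars are group means. Only *Tgfa* shows no overlap, at 9.44 to 10.98 CPM in WT and 5.57 to 8.52 in the other group.

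The tissue and the cultures differed in the make-up of the family. Per kb, *Egfr* led the receptors of WT RPE/choroid at 10.3 ± 1.6 CPM per kb (SD, n = 3), with *Erbb2* at 2.25 ± 0.48 and *Erbb3* at 2.23 ± 0.33, whose ranges overlapped. *Erbb3* thus took 14% to 16.7% of the summed receptor level there and at most 0.973% in any mRPE library. The ligands lay closer together than in the cultures, with *Areg* at 1.92 ± 0.64, *Ereg* at 1.52 ± 0.32, *Tgfa* at 1.47 ± 0.12, *Hbegf* at 1.10 ± 0.22, *Btc* at 0.636 ± 0.071 and *Nrg1* last at 0.517 ± 0.098 CPM per kb. The ranges of *Areg*, *Ereg* and *Tgfa* overlapped, as did those of *Btc* and *Nrg1*. Within each WT tissue library *Areg* lay above *Ereg* and *Btc* above *Nrg1*. The tables were normalized separately, so these levels are set side by side without a test. The WT tissue libraries also held markers of other cell types. Surface epithelium markers summed to 1094 to 1880 CPM, fibroblast and stroma markers to 845 to 1636, skeletal muscle markers to 285 to 956 and Schwann cell markers to 120 to 144. The levels are therefore those of the whole dissected tissue, and which of its cells they come from was not tested.

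Of the pathway lists in RPE/choroid, only *Spry4* passed both limits, and it was lower in the libraries labelled *Prom1*-KO. It stood at 7.07, 7.26 and 7 CPM in WT and 1.98, 2.15 and 1.92 CPM in the other group (log2 fold change -1.81 ± 0.14 SE, adjusted p = 0.00556; without replicate 2 labelled *Prom1*-KO, -1.86 with an adjusted p of 0.0546). *Dusp6* (-1.06 ± 0.13, adjusted p = 0.0331) was under the fold limit and *Dusp4* (-2.02 ± 0.30, adjusted p = 0.0709) missed the limit on p, both without overlap between the groups. Of the 12 RPE markers, all read in this tissue, 3 fell past both limits in the same libraries and none rose. Their sum was 2597 to 3544 CPM in WT and 1273 to 1436 CPM in the libraries labelled *Prom1*-KO. *Rpe65* (-6.06 ± 0.62), *Lrat* (-3.43 ± 0.22) and *Rgr* (-5.23 ± 0.57) fell. *Ttr* (-3.015 ± 0.45), *Rlbp1* (-2.07 ± 0.34) and *Mitf* (-0.82 ± 0.13) were lower without overlap but did not pass. *Dct* (0.37 ± 0.23) was higher without overlap and did not pass. *Otx2* (-0.67 ± 0.30), *Tyr* (0.31 ± 0.20), *Tyrp1* (-0.16 ± 0.17), *Pmel* (-0.15 ± 0.19) and *Best1* (-0.25 ± 0.38) overlapped and did not pass. Photoreceptor markers, 10 of 10, summed to 39.9 to 1133 CPM in WT and 19.8 to 541 CPM in the other group. The share of mitochondrial ribosomal RNA was 55.3% to 59.6% in WT and 62.9% to 80.4% in the other group. Their part in the *Spry4* difference was not tested.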

How the data were processed

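RNA-seq was analysed in 15 libraries, grouped by their labels. The authors trimmed reads with Trim Galore (0.6.7 in the submitters' notes), aligned them to mm39 with STAR, counted reads per gene and excluded genes with low counts; the raw count tables are as deposited, and the labels name an NEB stranded kit where the study's methods name TruSeq. The deposited normalized values (raw counts divided by 1 factor per library, DESeq2 1.42.0 in the notes) were not used. Genes reaching 5 counts in 3 or more libraries entered the tests in R 4.3.3 with the edgeR 4.0.16 quasi-likelihood test, TMM scaling and Benjamini-Hochberg adjustment, and tested on simulated data first. KO22 was compared with WT over all 7 of their libraries (the study, which set the KO26 libraries aside as outliers, gives 3 per group in a legend), KO26 with WT and KO22 with KO26 in 1 fit of 9, all with sequencing batch as a term; RPE/choroid had 1 batch. CPM are counts per TMM-scaled library size. Samples of a group may be technical repeats, and p-values then measure only the spread between them. Intervals are 95%. The members and gene lists were chosen with earlier results of these data known. Named were all members and other family genes, and up to 4 genes per list and direction past both limits in KO22. Alternatives were DESeq2 1.42.0 (size factors or Wald test), no filter, no fold limit, no batch term, batch 9262 alone, each library left out, the chromosome median taken off, and, added after seeing the data, mitochondrial ribosomal RNA genes left out and a batch by clone term.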

Additional observations from a re-analysis of the deposited data

Results flagged for a closer look

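The effects of the KO lines against the same WT libraries differed between lines by the edgeR test of KO22 against KO26 (adjusted p below 0.05 at any fold) for 7 of 8 members, as it did for 34.4% of all genes: the log2 difference was -2.75 for *Egfr*, -0.75 for *Erbb2*, 4.14 for *Areg*, 5.46 for *Ereg*, 1.39 for *Hbegf*, 0.94 for *Nrg1* and 3.96 for *Btc*. The lines differed by the same test for *Nrg2* (-2.73), *Cd9* (1.87), *Adam12* (-1.48), *Dusp4* (2.05), *Lrig3* (-2.33), *Spry2* (-1.11), *Nras* (1.48), *Pik3cb* (1.78), *Plaur* (2.22), *Etv4* (1.82), *Fosl1* (2.29) and *Ier2* (1.10). Left out singly, KO22 replicate 2 or 3 or the 9262 library of KO26 ended the call of *Etv4*, with adjusted p values of 0.068, 0.0715 and 0.283, and the 8995 library of KO22 or KO26 brought *Adam12* to -0.94 or -1.01, under the fold limit, as did batch 9262 alone (-0.83) and taking off the chromosome median (-1.12).

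The effect of KO22 differed between sequencing batches, larger in batch 8995 than in batch 9262 by 2.47 for *Areg*, 2.65 for *Ereg*, 2.08 for *Tgfa*, 1.49 for *Nrg1* and 2.60 for *Btc* on the log2 scale. Batch 8995 has 1 library of each line, so the spread in this test comes from batch 9262, and a batch and a single unlike library cannot be told apart.

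*Dusp4*, *Spry4*, *Plaur* and *Etv4* did not overlap between groups, higher in KO22 than in WT cells and lower in RPE/choroid labelled *Prom1*-KO than in tissue WT, where their log2 fold changes were -2.02, -1.81, -0.67 and -0.48. Of these only *Spry4* passed both limits in the tissue. Over all genes 24.8% were higher without overlap in KO22 and 7.89% lower without overlap in RPE/choroid. The difference between cultures and tissue was not tested.

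Among the WT mRPE libraries 1 value stood apart for 3 genes. The gap between the highest library and the next took 0.926 of the whole range for *Egf*, 0.938 for *Spry2* and 0.833 for *Nras*. For *Spry2* (48 CPM) and *Nras* (133 CPM) the high library is the only WT library of batch 8995, so batch and library cannot be told apart, while for *Egf* it is a library of batch 9262. Chance flags about 1 in 20 such groups.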

How the results depend on the processing

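All 5 members past both limits in KO22 against WT kept their direction and call under each alternative with a value; *Areg* had none in batch 9262 alone, where it fell below the filter. The labels share no replicate numbers. No paired analysis was possible because the groups share fewer than 2 numbers given in the labels. The cause of the changes below was not tested. Pathway list genes past both limits numbered 15 in KO22 against WT and 58 with no limit on the fold; for KO22 against KO26 they numbered 13 and 34. In KO26 against WT the count was 1, and it was 3 with no fold limit, 0 with no batch term, 0 in batch 9262 alone and 0 to 2 with single libraries left out. Batch 9262 alone called 1 member there, *Tgfa*. In RPE/choroid the count was 1, and it was 2 by DESeq2's Wald test, 2 with no fold limit and 0 to 1 with single libraries left out.

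The values that changed sign belonged to genes without a call in the comparison. With single libraries left out, log2 fold changes in KO22 against WT ranged from -0.615 to 0.194 for *Tgfa* and from -0.021 to 0.587 for *Nrg1*. In KO26 against WT they ranged from -0.093 to 0.523 for *Erbb2*, -0.187 to 1.487 for *Areg*, -0.975 to 0.836 for *Ereg*, -0.089 to 0.238 for *Hbegf*, -0.658 to 0.946 for *Btc*, -0.658 to 0.859 for *Egf* and -0.035 to 0.243 for *Nrg4*. For *Egf* in KO22 against KO26 they ranged from -1.041 to 0.477. In RPE/choroid they ranged from -0.146 to 0.124 for *Ereg*, -0.002 to 0.309 for *Hbegf*, -0.203 to 2.613 for *Nrg3* and -0.065 to 0.329 for *Nrg4*. Batch 9262 alone gave -0.004 for *Nrg1* in KO22, and -0.061 for *Erbb2* and -0.047 for *Hbegf* in KO26. Taking off the chromosome median gave 0.395 for *Tgfa* and -0.176 for *Nrg1* in KO22. Without mitochondrial ribosomal RNA genes *Ereg* in RPE/choroid was at -0.004.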
